A study of Mus musculus with 6 samples.

Results

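The transcripts of 50 TGF-beta and BMP pathway genes were compared in 3 immortalized mouse embryonic fibroblast (MEF) lines with different clock gene mutations. The 50 genes are a list of named pathway genes, drawn up with earlier results of these data known, out of 27179 genes in the deposited counts, and 42 of them averaged 100 or more normalized counts in the 6 libraries, as was required for a test. All lines carried the C57BL/6 strain label and were grown in high-glucose medium with serum. Cry/Per_KO cells carry mutations of Cry1, Cry2, Per1 and Per2. Cry/Per/Nr1d_KO cells are 1 clone made from these by lentiviral CRISPR and lack Nr1d1 and Nr1d2 in addition. Per/Nr1d_KO cells carry mutations of Per1, Per2, Nr1d1 and Nr1d2, keep the Cry genes, and came from the Per1/2-deficient MEF line by another route, so that loss of Per1 and Per2 is shared by all 3 lines. The lines serve to study the circadian feedback loop with some of its repressors removed. Each line gave 2 RNA preparations, and a genotype cannot be told apart from the history of its line.

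For 4 libraries, the genotype label and the name of the deposited count table give different lines: the pair labelled Cry/Per/Nr1d_KO carries the file name of Cry/Per_KO and the reverse. Groups follow the genotype labels here, and these pairs are named with the word labelled. Exchanging them turns the sign of the comparison between these pairs and exchanges the references of the comparisons with Per/Nr1d_KO cells, for which label and file name agree. Transcripts of the 6 mutated genes were found in every library, at no less than 1004 normalized counts, so that no mutated gene was without transcripts in the lines that lack it. Arntl, which NR1D1 and NR1D2 repress, was at 1192 and 1171 normalized counts in the Cry/Per/Nr1d_KO-labelled libraries, 2176 and 2208 in the Cry/Per_KO-labelled ones and 2493 and 2455 in Per/Nr1d_KO cells. The lowest Arntl thus lay in the pair labelled as lacking Nr1d1 and Nr1d2. Cry1 and Nr1d1, which NR1D proteins also repress, were lower in that pair (1698 and 1724 and, for Nr1d1, 3158 and 3146) than in the pair labelled Cry/Per_KO (5323 and 5478, and 9337 and 9249), and Nr1d2 (4881 and 5506, against 8262 and 8008) and Per1 (3066 and 3062, against 5644 and 5793) were lower there as well. The log2 fold changes of the pair labelled Cry/Per_KO were 0.89 ± 0.0583 (SE, edgeR adjusted p = 2.4e-09) for Arntl, 1.66 ± 0.0526 (SE, edgeR adjusted p = 9.6e-13) for Cry1 and 1.56 ± 0.0528 (SE, edgeR adjusted p = 1.9e-12) for Nr1d1. The paper reports Arntl, Cry1, Nr1d1, Nr1d2 and Per1 as lower in Cry/Per_KO than in Cry/Per/Nr1d_KO cells. That is the direction found here under the names of the count tables, and the reverse of that under the labels. In Arntl, Cry1 and Nr1d1 the labelled pairs therefore go against their genotype labels and with the names of the count tables, and every direction below that rests on these labels carries this limit.

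Library totals ran from 53764390 to 85927236 counts. Normalized counts are counts scaled by edgeR's TMM factors to the mean effective library size of 65881749. The median coefficient of variation between the libraries of a line was 2.93% for the 42 tested genes and 3.14% for all 11934 genes tested. Of 10 fibroblast markers, 9 had a mean of at least 100 normalized counts in each line, with Thy1 at 0 to 6.21. The summed fibroblast markers were 882100 to 959200 in the 4 libraries of the labelled pairs and 1716000 to 1736000 in Per/Nr1d_KO cells. The list did not move together: Col1a1, Col1a2, Col3a1 and Fn1 were called higher in Per/Nr1d_KO cells in at least 1 comparison, whereas Pdgfra, Pdgfrb, Prrx1, Vim and Twist1 were called lower in at least 1, with log2 fold changes relative to the pair labelled Cry/Per/Nr1d_KO of -1.61, -1.33, -1.19, -0.87 and, for Twist1, -0.42, which was not called there. Summed markers of epithelial, endothelial, leukocyte, muscle and neural cells (5 genes each) stayed between 17.7 and 392.9 normalized counts per list and library. In Per/Nr1d_KO cells the epithelial sum was 130.6 to 133 (17.7 to 64.4 in the other 4 libraries) and the leukocyte and macrophage sum 315 to 339.7 (186 to 219). The muscle sum was also highest in these cells (94.7 to 112.8, against 26.5 to 83.5), and the neural sum was highest in the pair labelled Cry/Per_KO (388.8 to 392.9, against 127 to 172), while Krt5, Krt14, Ptprc and Adgre1 did not exceed 3.95 in any library. The endothelial sum was lowest in the pair labelled Cry/Per_KO (49.0 to 57.9, against 112.8 to 138.1). Kdr was at 18.9 and 23.6 there, against 64.6 to 93.3. Tek was at 35.5 and 48.1 in Per/Nr1d_KO cells, against 5.55 to 11.5. Within these lists, Cdh1 was at 100.1 and 110.5 in Per/Nr1d_KO cells and at 7.99 to 27.8 in the other 4 libraries, whereas Epcam was at 26.6 and 18.1 against 8.84 to 33.3. The macrophage marker Cd68 was at 276 and 258 against 109 to 161, and was called higher in both comparisons (log2 fold changes 1.14 ± 0.134 (SE, edgeR adjusted p = 1.6e-06) and 0.81 ± 0.13 (SE, edgeR adjusted p = 3.4e-05)), whereas Csf1r was at 45.6 and 47.3 against 44.2 to 73.5. Cdh1 and Cd68 thus made up most of the higher epithelial and macrophage sums. The part of these markers in the results below was not tested.

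TGF-beta, activin and BMP ligands are secreted dimers that bind pairs of type I and type II serine/threonine kinase receptors. TGF-beta and activin receptors phosphorylate SMAD2 and SMAD3, BMP receptors phosphorylate SMAD1, SMAD5 and SMAD9, and both sets enter the nucleus with SMAD4. Fibroblasts make many of these ligands together with extracellular antagonists that hold them away from their receptors, and the pathway is known for its control of matrix production in these cells. As the RNA was taken from whole cultures, fewer cells of a kind and less RNA per cell cannot be told apart.

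A gene was called changed at an adjusted p under 0.05 with an absolute log2 fold change above 0.807, the fold limit. In the Cry/Per_KO-labelled libraries, 2 of the 42 tested members were higher (Nog and Tgfbr3) and 5 lower (Bmp3, Bmp4, Fst, Id1 and Id4) than in the Cry/Per/Nr1d_KO-labelled ones, where 7.86% and 8.95% of all genes tested were called higher and lower. Per/Nr1d_KO cells had 12 members higher and 8 lower than the Cry/Per/Nr1d_KO-labelled libraries, beside 11.3% and 9.35% of all genes. With the median log2 fold change of each chromosome subtracted, this split was 8 higher and 9 lower, as 4 calls are lost and that of Inhbb is gained. Relative to the Cry/Per_KO-labelled libraries, 9 members were higher and 8 lower in Per/Nr1d_KO cells, beside 15.2% and 13.8% of all genes. The median log2 fold changes of the members were 0.07, 0.28 and 0.02 in the 3 comparisons in this order, against -0.003, 0.01 and 0.03 for all genes tested. Both Per/Nr1d_KO libraries lay above the other 4 for 17 of 42 members (32.7% of all genes tested) and below them for 12 (30.2%). The comparisons share libraries and are not independent, and 5 members (Bmp3, Bmp6, Nog, Fstl3 and Bambi) passed the expression limit although at least 1 line was under it. Of these, Bmp6 and Fstl3 passed it through Per/Nr1d_KO cells alone, Nog through the pair labelled Cry/Per_KO and Bmp3 through the pair labelled Cry/Per/Nr1d_KO, so that their calls against the high pair have the direction that the filter selected. In all, 22 members were called in at least 1 comparison and 20 in none, beside 36.3% of all genes tested that were called in at least 1.

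**Figure D1:**
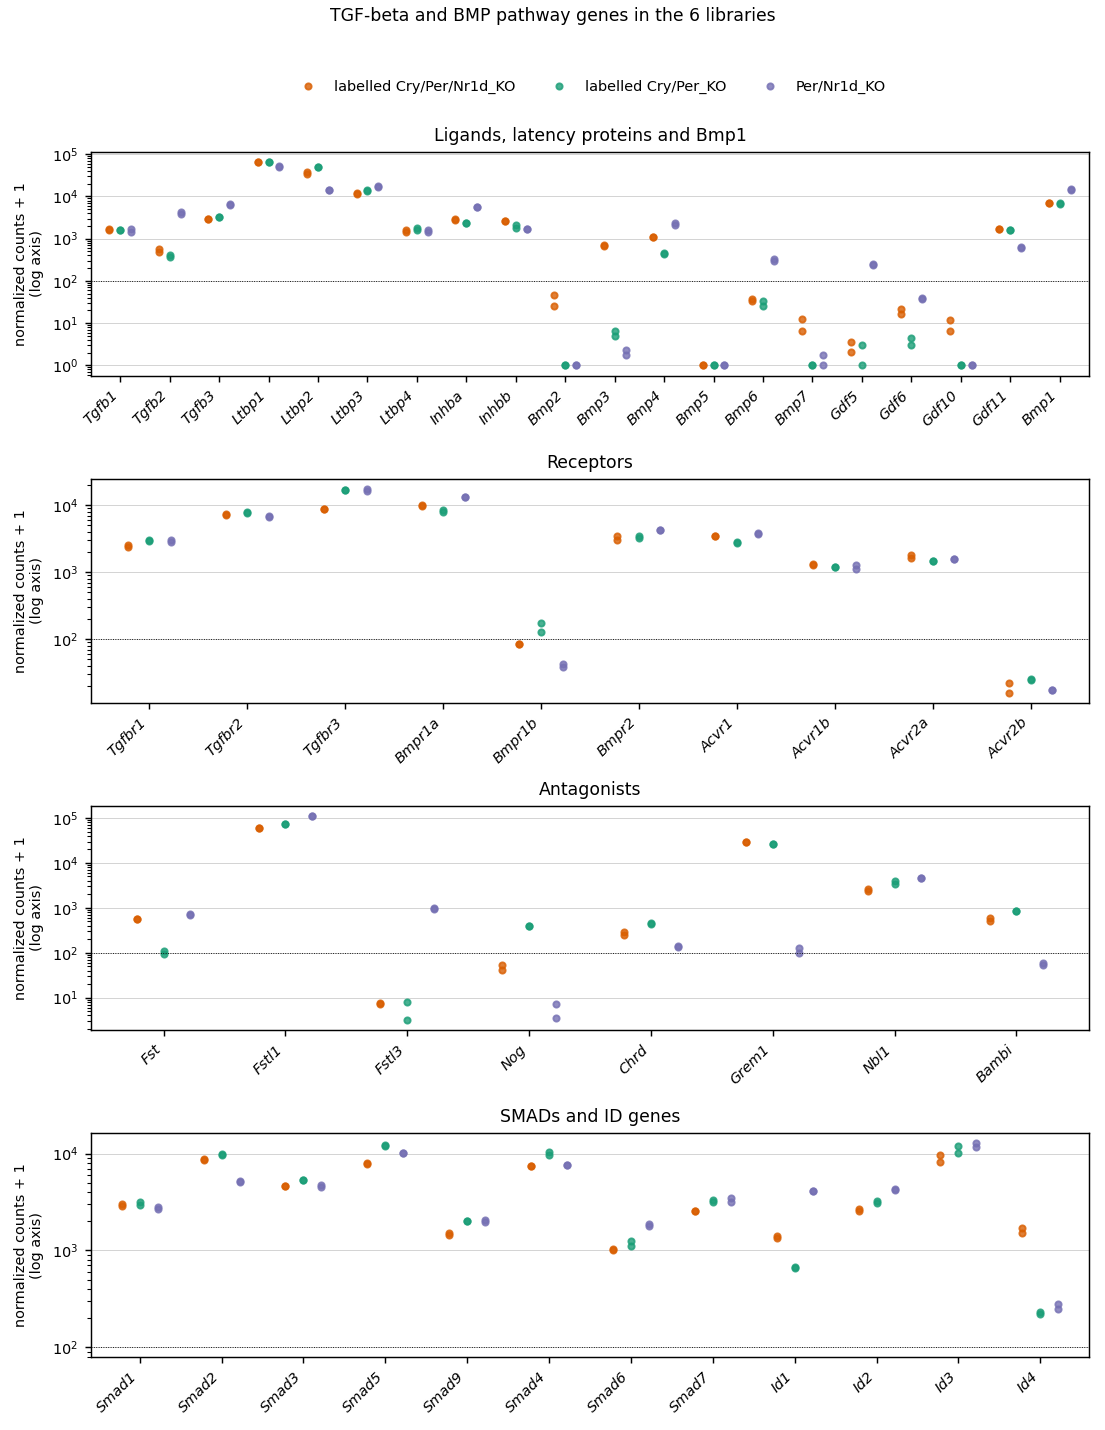
Normalized counts plus 1 (log axis) of the 50 genes, in panels by role. Each dot is 1 library, coloured by line, and the dotted line marks 100 normalized counts. Grem1, Fstl3, Tgfb2 and Bambi stand apart in both Per/Nr1d_KO libraries.

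The promoters of 4 members are shown because these members belong to those with large differences between lines and their promoters hold a short word that clock or nuclear receptor proteins can bind. The windows are the 250 bases before the start of a RefSeq transcript (GRCm38.p6, the assembly of mm10), 5′ to 3′ on the strand of the gene, with matches in capitals. The words searched on both strands were CACGTG (the E-box of CLOCK-BMAL1), AGGTCA (the core of the NR1D and ROR element), GTCTAGAC (the SMAD palindrome) and GGCGCC (a GC-rich SMAD word). The windows lie at chr1:186705990-186706239 for Tgfb2 (minus strand), chr14:46390670-46390919 for Bmp4 (minus strand), chr13:38345466-38345715 for Bmp6 (plus strand) and chr2:113758649-113758898 for Grem1 (minus strand).
Tgfb2: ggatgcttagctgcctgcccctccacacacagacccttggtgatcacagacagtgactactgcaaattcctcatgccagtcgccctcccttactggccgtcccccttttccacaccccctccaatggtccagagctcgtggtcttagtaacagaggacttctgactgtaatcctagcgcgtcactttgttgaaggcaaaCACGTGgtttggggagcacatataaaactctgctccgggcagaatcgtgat
Bmp4: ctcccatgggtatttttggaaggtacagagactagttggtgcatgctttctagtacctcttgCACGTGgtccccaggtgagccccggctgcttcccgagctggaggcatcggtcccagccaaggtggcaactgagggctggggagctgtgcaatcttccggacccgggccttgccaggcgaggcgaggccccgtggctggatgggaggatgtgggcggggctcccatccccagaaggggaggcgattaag
Bmp6: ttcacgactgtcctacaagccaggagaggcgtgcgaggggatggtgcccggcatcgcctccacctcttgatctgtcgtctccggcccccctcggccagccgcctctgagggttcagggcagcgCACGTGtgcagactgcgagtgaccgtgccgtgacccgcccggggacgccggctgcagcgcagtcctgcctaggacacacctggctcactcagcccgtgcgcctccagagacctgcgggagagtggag
Grem1: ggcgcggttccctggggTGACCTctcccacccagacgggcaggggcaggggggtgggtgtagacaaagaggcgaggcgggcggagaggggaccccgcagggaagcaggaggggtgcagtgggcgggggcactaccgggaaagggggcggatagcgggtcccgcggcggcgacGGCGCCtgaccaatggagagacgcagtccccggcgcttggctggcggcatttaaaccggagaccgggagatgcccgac

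The E-box began 51 bases before the start in Tgfb2, 188 in Bmp4 and 127 in Bmp6. In Grem1, TGACCT, the reverse complement of AGGTCA, began 233 bases and GGCGCC 78 bases before the start. A promoter entry was found for 35 of the 50 members. CACGTG was present in 4 of them (Acvr1b, Bmp4, Bmp6 and Tgfb2), 11.4% against 6.86% of 27025 genes with a promoter. AGGTCA was present in 3 (Bmpr1b, Fstl3 and Grem1), 8.57% against 15.8%. GTCTAGAC was in none, against 0.2% of all genes, and GGCGCC was in 11, 31.4% against 10.8%. No matches overlapped in the printed windows. A match is a description of letters and not a site at which binding was measured.

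Among the TGF-beta ligands, Tgfb2 and Tgfb3 were higher in Per/Nr1d_KO cells and Tgfb1 was called in no comparison. The promoter window of Tgfb2 (Entrez Gene 21808, chr1:186622787-186709697) printed above lies inside this gene span, before a transcript start within it. Tgfb2 was at 494 and 564 normalized counts in the Cry/Per/Nr1d_KO-labelled libraries, 407 and 358 in the Cry/Per_KO-labelled ones and 4311 and 3899 in Per/Nr1d_KO cells. Both Per/Nr1d_KO libraries were far above the other 4, which lay between 358 and 564. The log2 fold change was 2.96 ± 0.0825 (SE, edgeR adjusted p = 4.1e-14) against the Cry/Per/Nr1d_KO-labelled libraries, or 7.78-fold. Against the Cry/Per_KO-labelled libraries it was 3.42 ± 0.0865 (SE, edgeR adjusted p = 1e-14), or 10.7-fold. Tgfb3 (Entrez Gene 21809, chr12:86056743-86079041) was at 2985 and 2852 normalized counts in the Cry/Per/Nr1d_KO-labelled libraries, 3248 and 3269.7 in the Cry/Per_KO-labelled ones and 6662 and 6323 in Per/Nr1d_KO cells. Here too the Per/Nr1d_KO libraries did not overlap with the others, with log2 fold changes of 1.15 ± 0.0496 (SE, edgeR adjusted p = 8.6e-12) and 0.99 ± 0.0494 (SE, edgeR adjusted p = 3.7e-11) in the same order of references. Where a sentence on Per/Nr1d_KO cells gives a pair of log2 fold changes, this order is kept throughout, with the reference labelled Cry/Per/Nr1d_KO before the reference labelled Cry/Per_KO. Of the Tgfb3 exon bases, 12.4% overlap Gm48008 on the opposite strand, and the strand setting of the counting is not stated. Tgfb1 lay between 1438 and 1697 normalized counts, and both of these values came from Per/Nr1d_KO cells. Per kilobase of exon, mean levels in Per/Nr1d_KO cells were 1919.0 for Tgfb3, 708.9 for Tgfb2 and 310.9 for Tgfb1, whereas in the Cry/Per/Nr1d_KO-labelled libraries they were 862.7, 91.3 and 320.8.

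Latent TGF-beta binding proteins are matrix proteins, of which LTBP1, LTBP3 and LTBP4 hold latent TGF-beta, while LTBP2 does not bind it. Ltbp2 was the called gene of this group, lower in Per/Nr1d_KO cells, at 37683 and 34542 normalized counts in the Cry/Per/Nr1d_KO-labelled libraries, 48649 and 51086 in the Cry/Per_KO-labelled ones and 14398 and 13848 in Per/Nr1d_KO cells. The 3 pairs did not overlap. Its log2 fold change was -1.35 ± 0.0504 (SE, edgeR adjusted p = 1.4e-12) relative to the Cry/Per/Nr1d_KO-labelled libraries and -1.82 ± 0.0509 (SE, edgeR adjusted p = 3.5e-14) relative to the Cry/Per_KO-labelled ones. Ltbp1, with 51031 to 65876 normalized counts, was called in no comparison. The same held for Ltbp3 (11336 to 17688) and Ltbp4 (1454 to 1767).

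Inhba encodes the subunit of activin A and Inhbb that of activin B. Inhba was at 2811 and 2946 normalized counts in the Cry/Per/Nr1d_KO-labelled libraries, 2304 and 2336 in the Cry/Per_KO-labelled ones and 5471 and 5522 in Per/Nr1d_KO cells, highest in both Per/Nr1d_KO libraries. Its log2 fold changes were 0.93 ± 0.0489 (SE, edgeR adjusted p = 9.7e-11) and 1.24 ± 0.0497 (SE, edgeR adjusted p = 2.7e-12) relative to the Cry/Per/Nr1d_KO-labelled and Cry/Per_KO-labelled libraries. With the median of chromosome 13 subtracted, the first of these was 0.715 and no longer passed the fold limit. Inhbb, at 2692 and 2639 normalized counts in the Cry/Per/Nr1d_KO-labelled libraries, 1795 and 2073 in the Cry/Per_KO-labelled ones and 1716 and 1652 in Per/Nr1d_KO cells, did not pass the fold limit in any comparison. Its log2 fold change in Per/Nr1d_KO cells relative to the pair labelled Cry/Per/Nr1d_KO was -0.664 (edgeR adjusted p = 3.2e-07). Less the median of chromosome 1 it was -0.944, past the limit.

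Several of the 10 BMP and GDF ligand genes were detected well in 1 line and near 0 in another. Gdf11, an activin-like ligand, and Bmp4 were expressed in all lines, Bmp3 and Bmp2 had their highest levels in the Cry/Per/Nr1d_KO-labelled libraries, Bmp6 and Gdf5 in Per/Nr1d_KO cells, and Bmp5 had 0 counts in every library, which allows up to 3 counts per library. Bmp4 (Entrez Gene 12159, chr14:46383525-46390669), a ligand of BMPR1A, was at 1093 and 1117 normalized counts in the Cry/Per/Nr1d_KO-labelled libraries, 427 and 459.5 in the Cry/Per_KO-labelled ones and 2329.7 and 2163 in Per/Nr1d_KO cells. All 3 pairs were apart. The log2 fold change was -1.31 ± 0.0771 (SE, edgeR adjusted p = 7.3e-10) for the Cry/Per_KO-labelled libraries relative to the Cry/Per/Nr1d_KO-labelled ones. In Per/Nr1d_KO cells it was 1.02 ± 0.0671 (SE, edgeR adjusted p = 1.6e-09) and 2.34 ± 0.0746 (SE, edgeR adjusted p = 1.7e-13) relative to the Cry/Per/Nr1d_KO-labelled and Cry/Per_KO-labelled libraries. The median over all tested genes of chromosome 14 was 0.52 and 0.62 in these comparisons. Less these medians, the Bmp4 values were 0.505, under the fold limit, and 1.72.

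Bmp6 (Entrez Gene 12161, chr13:38345716-38500314) was low in the labelled pairs, at 37.3 and 33.3 and at 32.3 and 24.5, and higher in Per/Nr1d_KO cells, at 335 and 301. The log2 fold changes were 3.15 ± 0.164 (SE, edgeR adjusted p = 9.1e-11) and 3.48 ± 0.174 (SE, edgeR adjusted p = 4.1e-11). Bmp3 (Entrez Gene 110075, chr5:98854415-98884053), an atypical ligand that opposes other BMPs, was at 671 and 721 normalized counts in the Cry/Per/Nr1d_KO-labelled libraries, 5.56 and 3.93 in the Cry/Per_KO-labelled ones and 1.27 and 0.789 in Per/Nr1d_KO cells. It was high in 1 pair only, with a log2 fold change of -7.17 ± 0.202 (SE, edgeR adjusted p = 2.7e-13) in the Cry/Per_KO-labelled libraries. Per/Nr1d_KO cells held 2 counts in all, against 1405 in the Cry/Per/Nr1d_KO-labelled libraries, a ratio of 713 (95% exact interval 197.0 to 5890.0, counting error only). The 9 counts of the Cry/Per_KO-labelled libraries exceeded these 2 by a ratio of 4.83 (0.999 to 45.9). The edgeR adjusted p of that last difference was 0.03, and it was above 0.05 in DESeq2 (adjusted p = 0.056), in glmTreat (0.16), with only the compared groups (0.081) and without single libraries (0.12 without replicate 1 labelled Cry/Per_KO, 0.054 and 0.17 without replicates 1 and 2 of Per/Nr1d_KO). Gdf11 was at 1674 and 1727 normalized counts in the Cry/Per/Nr1d_KO-labelled libraries, 1568 and 1619 in the Cry/Per_KO-labelled ones and 651 and 591 in Per/Nr1d_KO cells. Both Per/Nr1d_KO libraries were below the other 4, with log2 fold changes of -1.46 ± 0.0713 (SE, edgeR adjusted p = 4.1e-11) and -1.37 ± 0.0717 (SE, edgeR adjusted p = 7.2e-11).

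Of the BMP and GDF ligands, 6 were below the expression limit and had no test there. Gdf5, a ligand known from joint formation, reached 239.6 and 248 normalized counts in Per/Nr1d_KO cells, while the other 4 libraries had 0 to 3 counts. The count ratio was 124.0 (48.1 to 457.0) relative to the Cry/Per/Nr1d_KO-labelled libraries and 234.0 (64.6 to 1940.0) relative to the Cry/Per_KO-labelled ones, but 40.3% of its exon bases overlap Gm15557 on the opposite strand. Bmp2 was detected in the Cry/Per/Nr1d_KO-labelled libraries, at 24 and 46.6, and had 0 counts in the other 4. Against a floor of 3 counts per library it was at least 11.2-fold and 11.4-fold higher there than in the Cry/Per_KO-labelled libraries and in Per/Nr1d_KO cells. Gdf6 was at 20.4 and 15.5 normalized counts in the Cry/Per/Nr1d_KO-labelled libraries, 3.34 and 1.96 in the Cry/Per_KO-labelled ones and 36.8 and 39.5 in Per/Nr1d_KO cells. When genes with a mean of at least 10 were tested, Gdf6 was called in all 3 comparisons, with log2 fold changes of -2.75, 1.07 and 3.81 (edgeR adjusted p = 0.0003, 0.005 and 7.8e-07) for the pair labelled Cry/Per_KO relative to the pair labelled Cry/Per/Nr1d_KO and for Per/Nr1d_KO cells relative to each. In that fit Gdf5 was called in both comparisons of Per/Nr1d_KO cells (edgeR adjusted p = 5.8e-13 and 4.4e-13), and Bmp2 in both comparisons with the pair labelled Cry/Per/Nr1d_KO (edgeR adjusted p = 4.5e-06 and 3.1e-06). Gdf10 (10.7 and 5.55) and Bmp7 (11.5 and 5.55) were detected in the Cry/Per/Nr1d_KO-labelled libraries, with at most 1 count in any other library. Bmp1, which is not a ligand but the protease that trims procollagens and cleaves chordin, was at 6954 and 6809 normalized counts in the Cry/Per/Nr1d_KO-labelled libraries, 6769 and 7062 in the Cry/Per_KO-labelled ones and 14566 and 14674 in Per/Nr1d_KO cells. The Per/Nr1d_KO libraries were about 2.12-fold higher, with log2 fold changes of 1.09 ± 0.0433 (SE, edgeR adjusted p = 3.2e-12) and 1.08 ± 0.0433 (SE, edgeR adjusted p = 2.8e-12). Bmp1 lies on chromosome 14 as Bmp4 does, and less the chromosome medians its values were 0.571 and 0.458, both under the fold limit.

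Of 10 receptor genes 8 were tested, and 1 of these, Tgfbr3, was called in any comparison, beside the 36.3% of all genes given above. Tgfbr3, which encodes betaglycan, a coreceptor that presents TGF-beta2, was at 8701 and 8753 normalized counts in the Cry/Per/Nr1d_KO-labelled libraries, 16909.5 and 16599 in the Cry/Per_KO-labelled ones and 17406 and 16485 in Per/Nr1d_KO cells. The Cry/Per/Nr1d_KO-labelled libraries were the low pair, and the other pairs overlapped. The log2 fold changes were 0.94 ± 0.0436 (SE, edgeR adjusted p = 5.4e-11) and 0.96 ± 0.0436 (SE, edgeR adjusted p = 1.7e-11) in the Cry/Per_KO-labelled libraries and in Per/Nr1d_KO cells, the latter 0.787 and under the fold limit after subtraction of the chromosome median. The signalling receptors Tgfbr1 (2363 to 3039 normalized counts) and Tgfbr2 (6566 to 7771) were not called. Nor were the BMP and activin receptors Bmpr1a, Bmpr2, Acvr1, Acvr1b and Acvr2a, and over the 8 receptors the log2 fold changes between Per/Nr1d_KO cells and the Cry/Per_KO-labelled libraries ran from -0.21 to 0.69. Bmpr1b, a type I receptor of GDF5, was under the limit for a test, at 85.2 and 85.5 normalized counts in the Cry/Per/Nr1d_KO-labelled libraries, 129 and 173 in the Cry/Per_KO-labelled ones and 41.8 and 37.9 in Per/Nr1d_KO cells. When genes with a mean of at least 10 were tested, it was called in all 3 comparisons, with log2 fold changes of 0.83, -1.11 and -1.94 (edgeR adjusted p = 0.00031, 0.00018 and 4.7e-08). Acvr2b stayed between 15.1 and 24.5 normalized counts.

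The extracellular antagonists and the pseudoreceptor Bambi were 8 genes, all tested. In Per/Nr1d_KO cells, 3 of them were higher (Fstl1, Fstl3 and Nbl1) and 4 lower (Grem1, Nog, Chrd and Bambi) than in the Cry/Per/Nr1d_KO-labelled libraries. Relative to the Cry/Per_KO-labelled ones, 2 were higher (Fst and Fstl3) and the same 4 lower. Beside these counts stand 11.3% of all genes higher and 9.35% lower in the first comparison, and 15.2% and 13.8% in the other. Grem1 (Entrez Gene 23892, chr2:113748675-113758648), which encodes gremlin 1, a protein that sequesters BMP2, BMP4 and BMP7, was at 28938 and 29431 normalized counts in the Cry/Per/Nr1d_KO-labelled libraries, 26353 and 25944 in the Cry/Per_KO-labelled ones and 129 and 95.5 in Per/Nr1d_KO cells. Among the 4 libraries of the labelled pairs it was an abundant transcript, and in Per/Nr1d_KO cells it was near the expression limit. The log2 fold changes were -8.06 ± 0.0799 (SE, edgeR adjusted p = 5.7e-19) and -7.91 ± 0.0798 (SE, edgeR adjusted p = 5.2e-19), or 268-fold and 239.9-fold lower. Nog (Entrez Gene 18121, chr11:89300638-89302559), which encodes the BMP antagonist noggin, was at 40.8 and 53.3 normalized counts in the Cry/Per/Nr1d_KO-labelled libraries, 386 and 385 in the Cry/Per_KO-labelled ones and 2.53 and 6.31 in Per/Nr1d_KO cells. The Cry/Per_KO-labelled libraries were the high pair, with a log2 fold change of 3.05 ± 0.157 (SE, edgeR adjusted p = 1.8e-10) relative to the Cry/Per/Nr1d_KO-labelled ones. Per/Nr1d_KO cells were the low pair, with -3.23 ± 0.376 (SE, edgeR adjusted p = 1.4e-06) and -6.28 ± 0.241 (SE, edgeR adjusted p = 1.7e-12), on 2 and 8 counts. The size of these differences thus rests on few reads.

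Chrd, which encodes the BMP antagonist chordin, followed the order of Nog at a smaller scale, at 292 and 243 normalized counts in the Cry/Per/Nr1d_KO-labelled libraries, 454 and 442 in the Cry/Per_KO-labelled ones and 136 and 140.4 in Per/Nr1d_KO cells. Its log2 fold changes in Per/Nr1d_KO cells were -0.96 ± 0.127 (SE, edgeR adjusted p = 5.8e-06) and -1.69 ± 0.12 (SE, edgeR adjusted p = 2.9e-09). Bambi, which encodes a pseudoreceptor without a kinase domain, was at 597 and 505 normalized counts in the Cry/Per/Nr1d_KO-labelled libraries, 860.3 and 863 in the Cry/Per_KO-labelled ones and 52 and 56.8 in Per/Nr1d_KO cells. The Per/Nr1d_KO libraries were again the lowest, with log2 fold changes of -3.33 ± 0.135 (SE, edgeR adjusted p = 4.1e-12) and -3.97 ± 0.13 (SE, edgeR adjusted p = 2.2e-13). Nbl1, which encodes the DAN protein, a weak BMP antagonist, went the other way, at 2591 and 2340.0 normalized counts in the Cry/Per/Nr1d_KO-labelled libraries, 3483 and 3888 in the Cry/Per_KO-labelled ones and 4596 and 4531 in Per/Nr1d_KO cells. It was called against the Cry/Per/Nr1d_KO-labelled libraries, with 0.89 ± 0.0623 (SE, edgeR adjusted p = 3.8e-09). Tested against the fold limit itself with edgeR's glmTreat, neither Nbl1 (adjusted p = 0.2) nor the Chrd difference from the Cry/Per/Nr1d_KO-labelled libraries (adjusted p = 0.23) was called.

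In the follistatin family, Fstl3 was high in Per/Nr1d_KO cells and Fst was low in the Cry/Per_KO-labelled libraries. Fstl3 (Entrez Gene 83554, chr10:79777274-79782630), which encodes a binder of activins and myostatin, was at 6.21 and 6.66 normalized counts in the Cry/Per/Nr1d_KO-labelled libraries, 2.23 and 6.87 in the Cry/Per_KO-labelled ones and 1008 and 942 in Per/Nr1d_KO cells. The 4 libraries of the labelled pairs had 2 to 7 counts, and the log2 fold changes were 7.22 ± 0.19 (SE, edgeR adjusted p = 2.1e-14) and 7.66 ± 0.203 (SE, edgeR adjusted p = 1.8e-14). The size of both values rests on the few reads of Fstl3 in these libraries. Prss57 overlaps 47.3% of its exon bases on the opposite strand, and reads of these genes cannot be told apart without strand. Fst, which encodes the activin binder follistatin, was at 573 and 574 normalized counts in the Cry/Per/Nr1d_KO-labelled libraries, 91.3 and 111 in the Cry/Per_KO-labelled ones and 715 and 701 in Per/Nr1d_KO cells. The Cry/Per_KO-labelled libraries lay below the other 4, with a log2 fold change of -2.50 ± 0.114 (SE, edgeR adjusted p = 4.8e-11), and Per/Nr1d_KO cells exceeded them by 2.80 ± 0.112 (SE, edgeR adjusted p = 2.7e-12). Fstl1, a secreted glycoprotein related to follistatin by sequence, was per kilobase of exon the most abundant of the 3, at 61703 and 60178 normalized counts in the Cry/Per/Nr1d_KO-labelled libraries, 72921 and 72745 in the Cry/Per_KO-labelled ones and 108750.0 and 110823 in Per/Nr1d_KO cells. It was called in Per/Nr1d_KO cells relative to the Cry/Per/Nr1d_KO-labelled libraries, with 0.85 ± 0.0427 (SE, edgeR adjusted p = 5.9e-11), but not by glmTreat (adjusted p = 0.32).

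**Figure D2:**
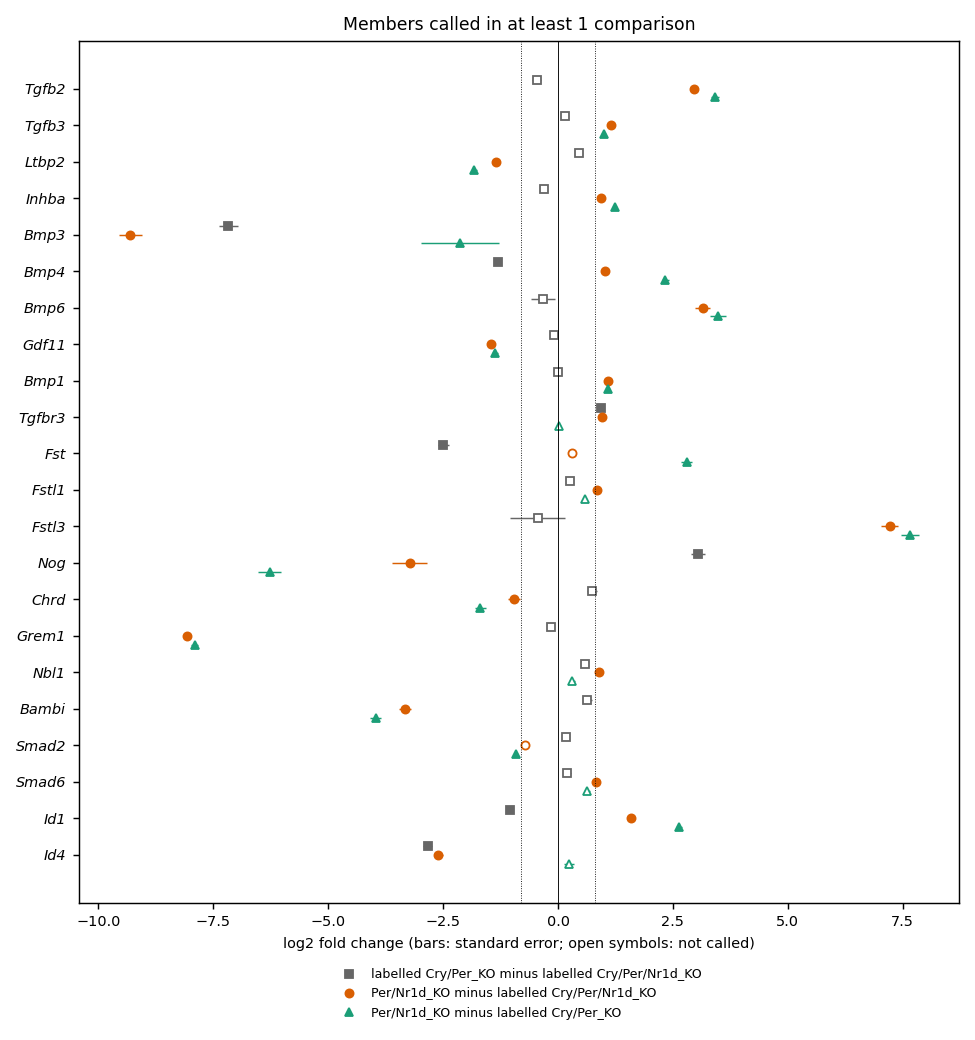
Log2 fold changes (horizontal axis) of the 22 members called in at least 1 comparison, with standard errors as bars. Filled symbols were called and open ones were not, and dotted lines mark the fold limit. In the comparisons with Per/Nr1d_KO cells, Fstl3 lies farthest to the right in both, and farthest to the left lie Bmp3 against the pair labelled Cry/Per/Nr1d_KO and Grem1 against the pair labelled Cry/Per_KO.

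All 8 SMAD genes were tested, and 2 were called in any comparison, again beside 36.3% of all genes. Smad2, which transmits TGF-beta and activin signals, was at 8521 and 8717 normalized counts in the Cry/Per/Nr1d_KO-labelled libraries, 9959 and 9578 in the Cry/Per_KO-labelled ones and 5149 and 5272 in Per/Nr1d_KO cells. The Per/Nr1d_KO libraries were the lowest, and the log2 fold change relative to the Cry/Per_KO-labelled libraries was -0.91 ± 0.0446 (SE, edgeR adjusted p = 3.3e-11). Less the median of chromosome 18 it was -0.461, under the fold limit. Smad6, which encodes the inhibitory SMAD of the BMP branch, was at 1017 and 1042 normalized counts in the Cry/Per/Nr1d_KO-labelled libraries, 1117 and 1245 in the Cry/Per_KO-labelled ones and 1887 and 1789.5 in Per/Nr1d_KO cells. Per/Nr1d_KO cells were higher than the Cry/Per/Nr1d_KO-labelled libraries by 0.84 ± 0.07 (SE, edgeR adjusted p = 3.2e-08), close to the fold limit of 0.807. Without replicate 1 of Per/Nr1d_KO the value was 0.799, and glmTreat did not call it (adjusted p = 0.75). Relative to the pair labelled Cry/Per_KO, Smad6 was at 0.63 (edgeR adjusted p = 5.2e-07) and not called. Less the median of chromosome 9 it was at 1.47, past the limit. Smad1, Smad3, Smad5, Smad9, the common Smad4 and the inhibitory Smad7 were called in no comparison, and all had at least 1445 normalized counts in each library. Smad9 was 0.443 higher in the pair labelled Cry/Per_KO than in the pair labelled Cry/Per/Nr1d_KO (edgeR adjusted p = 7.1e-06). Less the median of chromosome 3 this difference was 1.09 and passed the limit.

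The ID genes encode helix-loop-helix proteins that block other transcription factors and are direct targets of BMP signalling. The 4 genes did not move as a group. Id1 (Entrez Gene 15901, chr2:152736251-152737410) was at 1417 and 1336 normalized counts in the Cry/Per/Nr1d_KO-labelled libraries, 654 and 672 in the Cry/Per_KO-labelled ones and 4090.2 and 4136 in Per/Nr1d_KO cells. Its pairs did not overlap, with Per/Nr1d_KO cells highest and the Cry/Per_KO-labelled libraries lowest. The log2 fold change was -1.05 ± 0.0652 (SE, edgeR adjusted p = 1.3e-09) in the Cry/Per_KO-labelled libraries. In Per/Nr1d_KO cells it was 1.58 ± 0.058 (SE, edgeR adjusted p = 1.2e-12) and 2.63 ± 0.0628 (SE, edgeR adjusted p = 5.2e-15). Bmp4 stood in this order across the 3 pairs, but so did Tgfb2, Inhba and Fst, whereas Id2, Id3 and Id4 did not. This is a description of 3 lines, and a link between these genes was not tested. Id4 was at 1526 and 1709 normalized counts in the Cry/Per/Nr1d_KO-labelled libraries, 221 and 231 in the Cry/Per_KO-labelled ones and 247 and 281 in Per/Nr1d_KO cells. It was high in 1 pair, and the log2 fold changes relative to the Cry/Per/Nr1d_KO-labelled libraries were -2.83 ± 0.0959 (SE, edgeR adjusted p = 1.9e-12) in the Cry/Per_KO-labelled ones and -2.60 ± 0.093 (SE, edgeR adjusted p = 8.9e-13) in Per/Nr1d_KO cells. Id2, at 2567 to 4324, and Id3, at 8118 to 12801, did not pass the fold limit.

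Summed per kilobase of exon, the roles can be set side by side as levels. The 10 BMP and GDF ligand genes summed to 1017.0 and 1049 normalized counts per kilobase in the Cry/Per/Nr1d_KO-labelled libraries, 586 and 611 in the Cry/Per_KO-labelled ones and 1396 and 1303 in Per/Nr1d_KO cells. The 4 BMP antagonists (Nog, Chrd, Grem1 and Nbl1) summed to 8321 and 8317, 8367 and 8465, and 2315 and 2278 in the same order. Per/Nr1d_KO cells had the highest ligand sum. Within these 4 antagonist genes, the low sum of Per/Nr1d_KO cells rests on Grem1 alone, which gave a mean of 7036 and 6304 of the sum in the labelled pairs. Without Grem1 the sums of the other 3 were 1345 and 1221, 2013 and 2210.0, and 2284 and 2255 in the same order, with Per/Nr1d_KO cells highest for these 3 genes. Most of this was Nbl1, with means of 1213, 1813 and 2245 in the same order. Nog (27.8, 227.5 and 2.61) and Chrd (42.8, 71.6 and 22.1) were lowest in Per/Nr1d_KO cells. The 3 TGF-beta ligands had mean sums of 1275, 1349 and 2939, the 4 latent TGF-beta binding proteins 11960.0, 14000.0 and 8693, and the 4 ID genes 7673, 8104 and 12250.0. These sums are descriptions with no test and weight abundant genes most. BMP antagonists of the further lists, such as Chrdl1 described below, are not in them, so the rankings hold for the summed genes only.

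**Figure D3:**
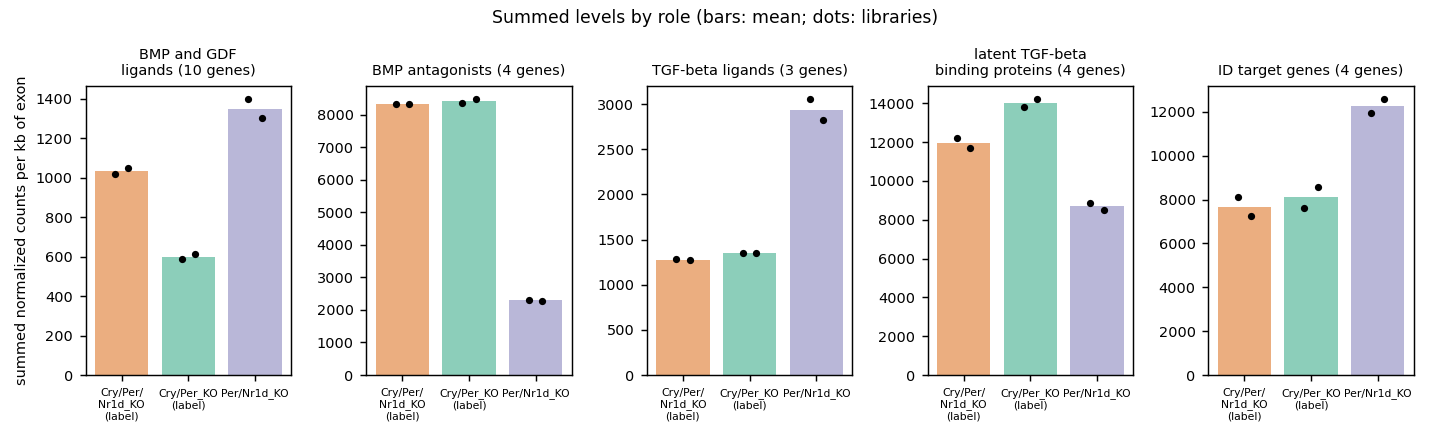
Summed normalized counts per kilobase of exon for 5 roles, with bars for the mean and dots for the 2 libraries of each line. The mean of the BMP antagonists, most of it Grem1 in the labelled pairs, is 8319 and 8416 there and 2297 in Per/Nr1d_KO cells, where that of the TGF-beta ligands is 2939.

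A further 76 genes of the pathway, listed by role, were examined in the same fit, and 49 were tested. In the Cry/Per_KO-labelled libraries, 3 were higher (Atoh8, Smurf2 and Zfyve16) and 10 lower than in the Cry/Per/Nr1d_KO-labelled ones, beside 7.86% and 8.95% of all genes tested. Per/Nr1d_KO cells had 17 higher and 9 lower than the Cry/Per/Nr1d_KO-labelled libraries (11.3% and 9.35% of all genes), and 21 higher and 9 lower than the Cry/Per_KO-labelled ones (15.2% and 13.8%). With chromosome medians subtracted, the counts were 2 and 8, 15 and 8, and 15 and 8. In 6 tested genes of these lists (Inha, Chrdl1, Fmod, Lrrc32, Itgb6 and Tgfbi) at least 1 line was under the expression limit, and Inha, Lrrc32 and Itgb6 passed it through Per/Nr1d_KO cells alone, in which they are then counted as higher. Among secreted antagonists and modulators, 5 of 12 tested genes were higher (Fmod, Thbs1, Lrrc32, Itgb6 and Itgb8) in Per/Nr1d_KO cells in each of these comparisons, the lower ones including Chrdl1 and Bmper, and of the few other ligands and receptors tested, Inha and Eng were higher and Rgma lower. Names within these counts were added after the values were seen, apart from the genes described next, which the rule of largest change named. Lrrc32, which encodes GARP, a cell surface anchor of latent TGF-beta, was at 9.77 and 21.1 normalized counts in the Cry/Per/Nr1d_KO-labelled libraries, 7.79 and 3.93 in the Cry/Per_KO-labelled ones and 14098 and 13448 in Per/Nr1d_KO cells. Its log2 fold changes in Per/Nr1d_KO cells were 9.85 ± 0.117 (SE, edgeR adjusted p = 3e-18) and 11.20 ± 0.132 (SE, edgeR adjusted p = 2.3e-18). Itgb6, the beta subunit of an integrin that activates latent TGF-beta, was at 469 and 512 in Per/Nr1d_KO cells, with 2 counts in all in the Cry/Per/Nr1d_KO-labelled libraries and 0 in the Cry/Per_KO-labelled ones. Its count ratio to the former was 502.0 (95% exact interval 139.0 to 4150.0), and its mean was 156 times the floor of 3 counts per library set for the latter.

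A chordin-like gene was low where Grem1 was low. Chrdl1, which encodes a chordin-like BMP antagonist, was at 2389 and 2629.8 normalized counts in the Cry/Per/Nr1d_KO-labelled libraries, 2488 and 2458 in the Cry/Per_KO-labelled ones and 50.7 and 62.3 in Per/Nr1d_KO cells, with log2 fold changes in Per/Nr1d_KO cells of -5.44 ± 0.104 (SE, edgeR adjusted p = 4.4e-16) and -5.42 ± 0.104 (SE, edgeR adjusted p = 4.1e-16). Between the labelled pairs, the genes with the largest rises in the Cry/Per_KO-labelled libraries were Atoh8, a BMP-responsive transcription factor gene, and Smurf2, which encodes a ubiquitin ligase for SMADs and receptors. Atoh8 was at 781 and 848 normalized counts in the Cry/Per/Nr1d_KO-labelled libraries, 2516 and 2662 in the Cry/Per_KO-labelled ones and 3148 and 2836 in Per/Nr1d_KO cells, and its log2 fold change was 1.67 ± 0.0715 (SE, edgeR adjusted p = 2.3e-11). Smurf2 was at 11294 and 11833 normalized counts in the Cry/Per/Nr1d_KO-labelled libraries, 20956 and 21482 in the Cry/Per_KO-labelled ones and 10897 and 10404 in Per/Nr1d_KO cells, with 0.88 ± 0.0444 (SE, edgeR adjusted p = 1.5e-10), and was not called by glmTreat (adjusted p = 0.16). The largest falls were those of Fmod and Postn, which encode the matrix proteins fibromodulin and periostin. Fmod was at 134 and 147 normalized counts in the Cry/Per/Nr1d_KO-labelled libraries, 2.23 and 1.96 in the Cry/Per_KO-labelled ones and 759 and 703 in Per/Nr1d_KO cells, and the 4 counts of the Cry/Per_KO-labelled libraries gave a ratio of 66.9 (25.9 to 247.0) between these pairs. Postn was at 24867 and 26388 normalized counts in the Cry/Per/Nr1d_KO-labelled libraries, 2449.7 and 2332 in the Cry/Per_KO-labelled ones and 7422 and 7318 in Per/Nr1d_KO cells, with a log2 fold change of -3.42 ± 0.0508 (SE, edgeR adjusted p = 4.4e-16).

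Of 20 listed target genes of TGF-beta and BMP signalling, 17 were tested. In the Cry/Per_KO-labelled libraries, 1 was higher (Atoh8) and 4 were lower (Ccn1, Ccn2, Tgfbi and Postn) than in the Cry/Per/Nr1d_KO-labelled ones. In Per/Nr1d_KO cells, 8 were higher and 3 lower (Postn, Bhlhe40 and Msx2) than in the Cry/Per/Nr1d_KO-labelled libraries, and 10 were higher and 2 lower (Bhlhe40 and Msx2) than in the Cry/Per_KO-labelled ones, where the shares of all genes are those just given for the further genes. Less the chromosome medians, Ccn1 between the labelled pairs (-0.224), Fn1 in both comparisons of Per/Nr1d_KO cells (0.63 and 0.615) and Postn (0.745) and Runx2 (0.725) in the latter of these fell under the fold limit. The median log2 fold changes of the 17 genes were -0.23, 0.44 and 0.88 in these comparisons, beside -0.003, 0.01 and 0.03 for all genes tested. Col1a1 and Fn1 of the target list are also in the fibroblast marker list, whose collagens and Fn1 were higher and whose other 5 tested genes were lower in Per/Nr1d_KO cells as given above, and the part of these markers in this was not tested. Bhlhe40 of the target list is also among the CLOCK-BMAL1-regulated genes that the paper reports as lower in Per/Nr1d_KO than in Cry/Per/Nr1d_KO cells. Of 16 regulators of SMADs, Smurf2 and Zfyve16 were higher and Pmepa1 and Trim33 lower in the Cry/Per_KO-labelled libraries than in the Cry/Per/Nr1d_KO-labelled ones, beside 7.86% and 8.95% of all genes. In Per/Nr1d_KO cells, Zfyve16 and Pmepa1 were higher and Nedd4l and Strap lower than in the Cry/Per/Nr1d_KO-labelled libraries (11.3% and 9.35% of all genes). Relative to the Cry/Per_KO-labelled ones, 4 regulators were higher (Pmepa1, Trim33, Skil and Tgif1) and 3 lower (Smurf2, Rnf111 and Strap), beside 15.2% and 13.8%. Less the chromosome medians, 5 of these 7 were under the fold limit, namely Trim33 (0.181), Skil (0.0212), Tgif1 (0.742), Rnf111 (-0.102) and Strap (-0.41). The same held for Zfyve16 (0.484) and Trim33 (-0.41) between the labelled pairs, and for Zfyve16 (0.755) and Strap (-0.729) relative to the reference labelled Cry/Per/Nr1d_KO.

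**Figure D4:**
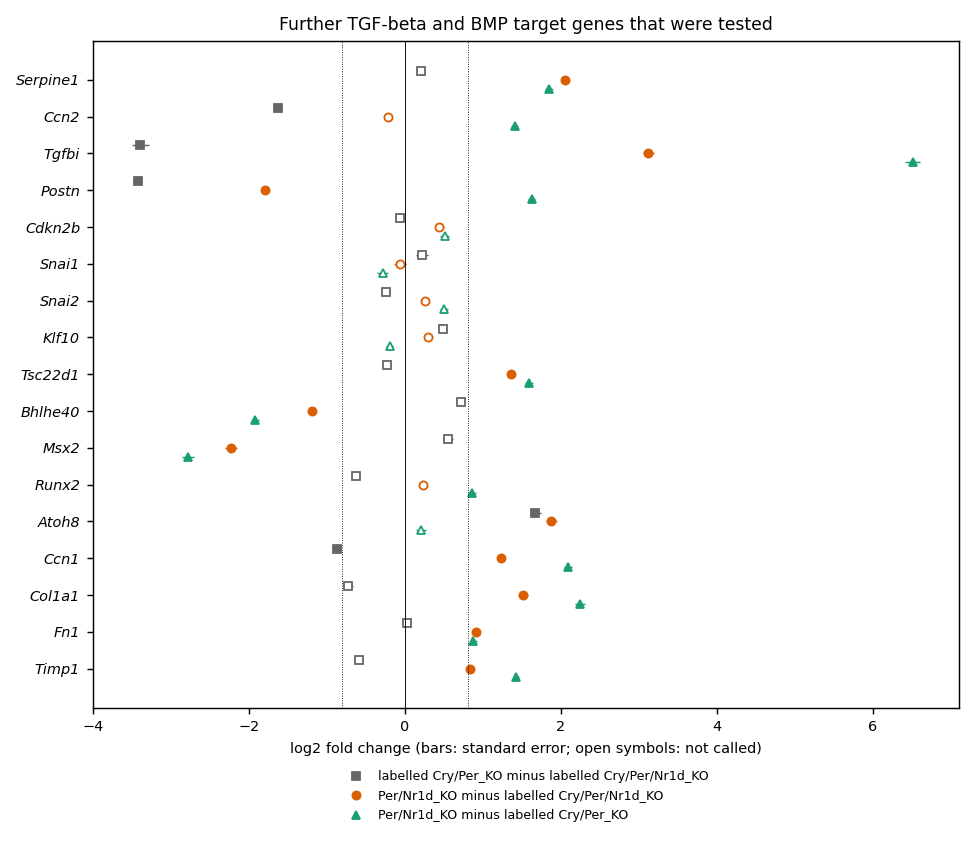
Log2 fold changes (horizontal axis) of the 17 tested genes of the target list, with standard errors as bars, filled symbols for called and open ones for other differences, and dotted lines at the fold limit. Tgfbi lies farthest to the right in the comparisons with Per/Nr1d_KO cells, and Bhlhe40 and Msx2 lie to the left in both.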

How the data were processed

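Poly-A RNA of 3 mouse embryonic fibroblast lines (2 libraries each) was sequenced by the authors from stranded libraries as single-end reads of 50 bases. Per the labels, STAR mapped the reads (mm10) and featureCounts gave gene counts, which were deposited as whole, unnormalized numbers under Entrez Gene IDs. The strand setting and the treatment of multi-mapping reads are not given in the sources used here. The deposited tables of the authors' DESeq2 (1.22.2) comparisons, with fold changes and p-values, were not used. Symbols came from RefSeq (GRCm38.p6) for 25275 of 27179 genes, and exon lengths and overlaps came from GENCODE vM21.

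The analysis used edgeR 4.0.16 and limma 3.58.1 under R 4.3.3. The 11934 genes that averaged 100 or more normalized counts entered 1 quasi-likelihood fit of all 6 libraries with TMM normalization, 3 groups and no block. A call needed a p under 0.05 after Benjamini-Hochberg adjustment over all genes tested and a log2 fold change beyond 0.807 in either direction, the limit of the study. The SE is the size of the log2 fold change divided by the square root of F. The biological coefficient of variation was 0.0393, and p-values measure the spread between RNA preparations of 1 culture line each. Count ratios carry 95% exact (Clopper-Pearson) intervals, and a group at 0 was set to a floor of 3 counts per library. Both cover counting error only. The fit was also run on simulated counts, and no result of that run is given or used here.

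The members, the further lists, the markers and the promoter words were chosen with earlier results of these data known. All 50 members are accounted for, and each called member is given with its values in every library. Of the further lists, the text names the 2 called genes with the largest log2 fold change per comparison and direction, apart from a gene that is not reported here. Alternatives were DESeq2 1.42.0, median-of-ratios size factors, a mean of at least 10 or no filter, no fold limit, glmTreat, only the compared groups, a block for the replicate number, each library left out in turn, and chromosome medians subtracted. Subtracting chromosome medians changed the log2 fold changes only, and the adjusted p stayed that of the unsubtracted difference. Added after seeing the data were a crossed block and the same alternatives for the further lists.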

Additional observations from a re-analysis of the deposited data

How the results depend on the processing

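The 44 called log2 fold changes of members were recomputed under 15 alternatives, which gave 660 values, of which 643 kept their direction and call, 17 fell short of a threshold and 0 reversed. The 643 include the values with no fold limit, where the fit is unchanged and every call is kept by construction. Of the 17, 6 arose on subtracting chromosome medians, 5 in glmTreat, 4 on leaving out a library, 1 in DESeq2 and 1 in the fit of only the compared groups, and they concern Inhba, Bmp4, Bmp1, Tgfbr3, Smad2, Fstl1, Chrd, Nbl1, Smad6 and Bmp3. The counts of called members (7, 20 and 17 in the order labelled Cry/Per_KO against labelled Cry/Per/Nr1d_KO, Per/Nr1d_KO against labelled Cry/Per/Nr1d_KO, and Per/Nr1d_KO against labelled Cry/Per_KO) rose to 32, 35 and 33 with no fold limit, and the first to 12 with no expression filter, since more genes are then tested. For the further pathway genes (13, 26 and 30), the counts were 41, 40 and 48 with no fold limit, and the first was 20 with no filter. Over all genes (2006, 2468 and 3457), they were 9118, 9042 and 9793 with no fold limit, 3808, 4576 and 5590 with no filter, and 3311 and 3912 for the first 2 comparisons at a mean of at least 10. Leaving out each library in turn gave 7 to 8, 19 to 20 and 16 to 17 members, 12 to 13, 25 to 26 and 29 to 31 further genes, and 1998 to 2042, 2451 to 2519 and 3434 to 3496 genes in all. Of the 19 called values of the further genes that the rule of largest change gave, 6 recomputed values fell short of a threshold. Lrrc32 between the labelled pairs was not called without replicate 2 labelled Cry/Per/Nr1d_KO (-0.754), without replicate 2 labelled Cry/Per_KO (-0.916), in glmTreat (adjusted p = 0.39) or with only the compared groups (adjusted p = 0.057). Smurf2 between these pairs was lost in glmTreat (adjusted p = 0.16), and Postn against the pair labelled Cry/Per_KO less the chromosome median (0.745). Subtracting chromosome medians left 10, 23 and 23 further genes called.

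Same-numbered libraries did not deviate together (correlations of their deviations -0.188, -0.0843 and -0.02), and the main fit used no block. With 2 libraries per line, these correlations cannot show whether the samples were paired in another way. With the replicate block, 7, 20 and 17 members, 13, 26 and 30 further genes and 2002, 2468 and 3457 genes in all were called. Because of the correlation of -0.188, a crossed replicate block, in which the numbers of the pair labelled Cry/Per_KO are exchanged, was added after seeing the data and called 7, 20 and 17 members. Depth limits the 8 untested members and the genes with under 10 counts in a line, whose ratios rest on few reads.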
